A study of Homo sapiens with 4 samples.

Results

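The chromatin of 7 genes of the Hippo pathway was described in DU145, an established human cell line from a brain metastasis of prostate cancer. The genes were YAP1, WWTR1, TEAD1, CYR61, CTGF, AMOTL2 and LATS2. Every peak of the deposited H3K27ac and CTCF lists that overlapped an hg19 gene interval widened by 50 kb on each side was taken as a member. This gave 94 of 50364 H3K27ac peaks and 34 of 36152 CTCF peaks, 128 of 86516 in all. The series has 4 libraries: a CTCF precipitate and a precipitate of histone H3 acetylated at lysine 27 (H3K27ac) from DU145 chromatin, DU145 input, and input of LNCaP, another prostate cancer line. The labels name no drug, no genetic change and no time course. With 1 library per mark, replicate error is unknown and no test between conditions was possible. The members were taken by position and not by signal, though the choice was made with earlier results of these data known.

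The Hippo pathway restrains growth through a kinase cascade. Its last kinases, the LATS kinases, phosphorylate the coactivators YAP (gene YAP1) and TAZ (gene WWTR1) and keep them out of the nucleus. In the nucleus YAP and TAZ bind the TEAD transcription factors, TEAD1 among them, and switch on genes such as CYR61 and CTGF, which encode secreted matricellular proteins. AMOTL2, an angiomotin family protein that binds YAP, and LATS2 are both targets and inhibitors of YAP, so they close a feedback loop. H3K27ac marks nucleosomes of active promoters and enhancers, and CTCF is a zinc finger protein that binds insulators and loop anchors.

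Before their starts, 3 members carry the DNA word that TEAD proteins read. Their promoter sequences are shown for this word, and LATS2, with a copy after its start, and WWTR1, with none, are not printed. The stretches are the 250 bases before a RefSeq start (build GRCh38.p14, read 5′ to 3′ along the gene's strand). Capitals mark GGAATG or its reverse complement CATTCC. RefSeq lists CTGF as CCN2. The YAP1 stretch is chr11:102110197-102110446 on the plus strand, the CTGF stretch chr6:131951373-131951622 on the minus strand, and the AMOTL2 stretch chr3:134374448-134374697 on the minus strand. These GRCh38.p14 positions were not set against the hg19 peaks.
YAP1: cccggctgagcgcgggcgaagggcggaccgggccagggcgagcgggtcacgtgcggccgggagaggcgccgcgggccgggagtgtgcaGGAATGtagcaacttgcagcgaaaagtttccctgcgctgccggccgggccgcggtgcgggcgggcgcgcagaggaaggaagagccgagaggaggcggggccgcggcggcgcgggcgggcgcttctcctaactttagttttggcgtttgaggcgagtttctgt
CTGF: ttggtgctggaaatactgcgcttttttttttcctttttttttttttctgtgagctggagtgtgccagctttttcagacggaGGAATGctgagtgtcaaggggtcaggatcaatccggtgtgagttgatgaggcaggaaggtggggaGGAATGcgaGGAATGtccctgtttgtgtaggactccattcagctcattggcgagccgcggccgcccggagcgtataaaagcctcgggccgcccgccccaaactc
AMOTL2: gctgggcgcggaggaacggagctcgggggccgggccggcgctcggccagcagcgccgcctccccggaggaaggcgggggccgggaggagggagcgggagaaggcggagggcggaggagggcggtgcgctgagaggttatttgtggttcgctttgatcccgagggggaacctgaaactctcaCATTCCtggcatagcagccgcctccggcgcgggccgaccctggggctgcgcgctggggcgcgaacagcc

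RefSeq promoter windows of 300 bases, 250 before and 50 after a start, were matched for 5 of the 7 members: YAP1, WWTR1, CTGF, AMOTL2 and LATS2. WWTR1 and AMOTL2 had 2 starts each, which made 7 windows. CTGF held 3 copies of GGAATG, whose first bases lay 169, 104 and 95 bases before the start. Of all 35116 RefSeq promoter windows, 14.0% held the word at least once on either strand and 0.128% held it 3 or more times. YAP1 had 1 copy, 162 bases before its start, and AMOTL2 had 1 at one of its 2 starts, in reverse, 69 bases before it. LATS2 had 1 copy, 10 bases after its start, and neither WWTR1 window held one. CYR61 and TEAD1 were not searched. The AP-1 word TGANTCA, searched on both strands and read by the FOS and JUN factors, was in 0 of the 7 windows and in 7.71% of all. The CArG box, read by serum response factor, was in 0 of the 7 and in 1.29% of all. A word of this kind is a description of the sequence and not a bound site.

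H3K27ac peaks were denser than the genome average over the 7 windows combined and in each window, up to 208 per Mb at AMOTL2. CTGF was lowest, at 19.2 per Mb from 2 peaks, and YAP1 next, at 31.4 per Mb. Of the CTGF window 1.24% was acetylated, slightly below the 1.38% of the assembled chromosomes. The windows, 1.35 Mb in all, held 69.6 H3K27ac peaks per Mb (exact Poisson 95% interval 56.2 to 85.1), against 16.1 per Mb over the 24 assembled chromosomes, 4.33 times the density (interval 3.50 to 5.29). Both intervals treat peaks as independent counts. Peaks lay in clusters, so the intervals are too narrow as a measure of spread. H3K27ac peaks covered 7.27% of the window bases and 1.38% of the assembled chromosomes. Windows set on other genes were not examined, so whether any of this is particular to these 7 is unknown. The fold enrichment of a peak, the authors' own value, is the ratio of signal at its summit to local background. A small constant is added to both, so the fold is less than the plain ratio. Its median was 4.39 in the 94 peaks and 4.55 in the whole list. A fold of 10 or more was reached by 19 of the 94 peaks, 20.2%, close to the 20.6% of the whole list. Of the 94 peaks, 6 were 3 kb or wider, against 2.45% of the list. The fold values ran from 2.58 in TEAD1 to 57.0 in LATS2.

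**Figure D1:**
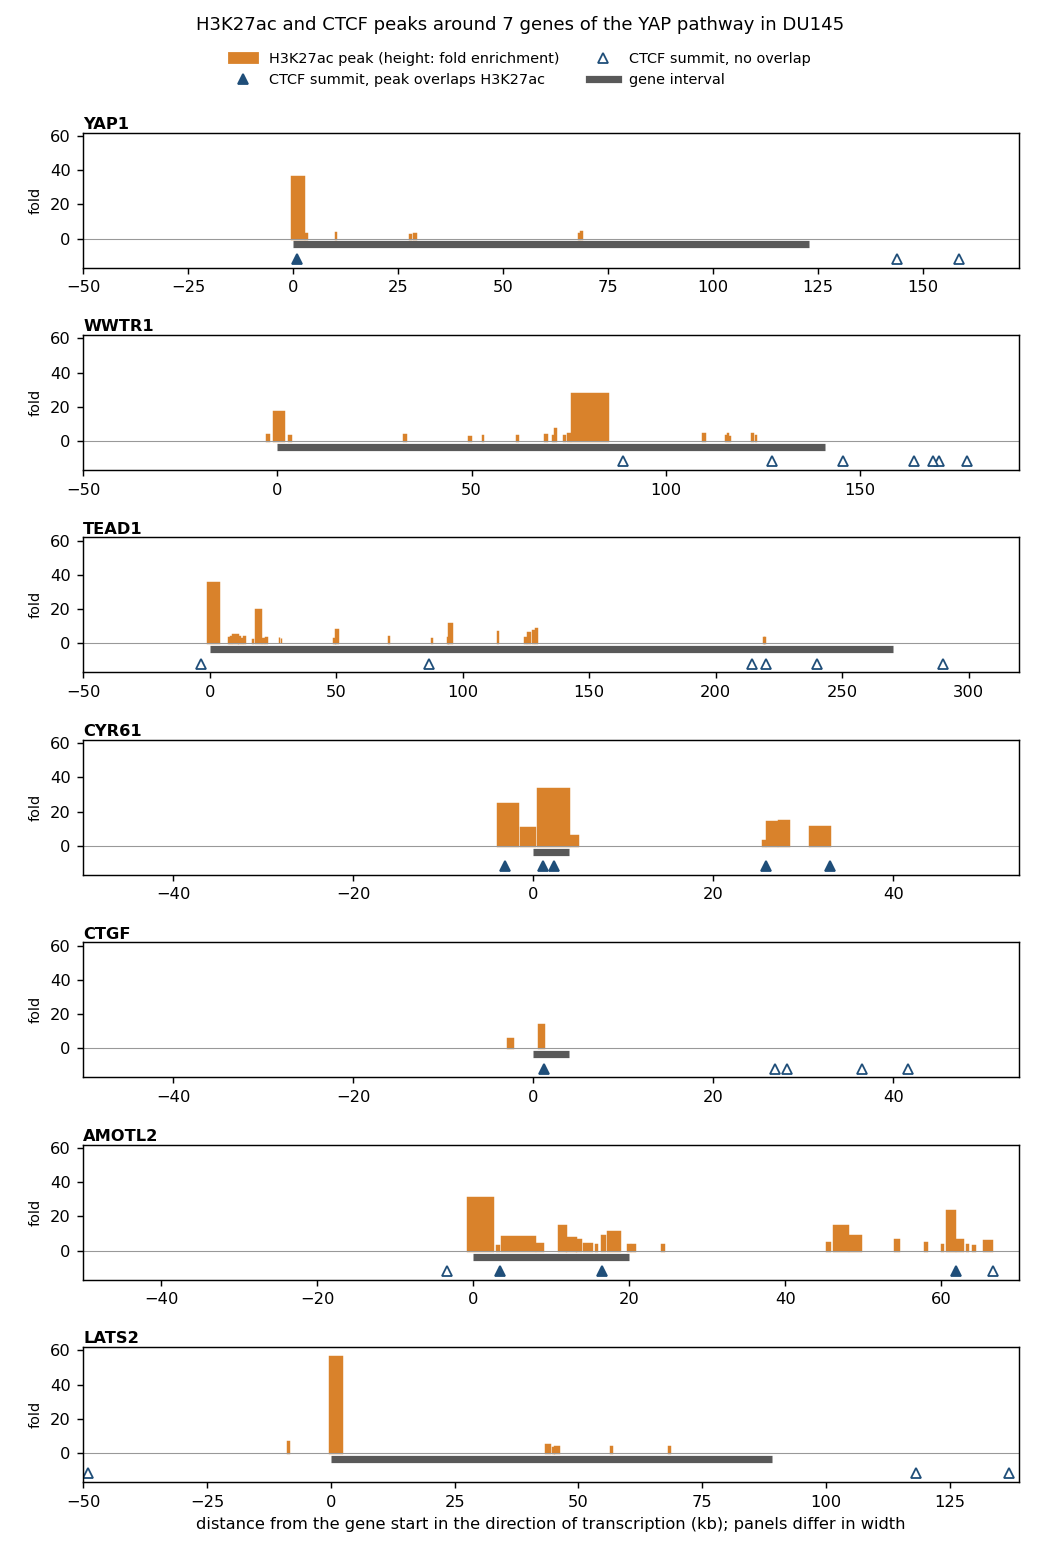
H3K27ac peaks (orange, height is fold enrichment) and CTCF summits (triangles, filled where the CTCF peak overlaps an H3K27ac peak) are drawn by distance in kb from the start of each of the 7 genes, in the direction of transcription; the grey bar is the gene interval and the panels differ in width. A tall peak stands at the start of YAP1, TEAD1, CYR61, AMOTL2 and LATS2, the widest block of WWTR1 lies inside the gene, and CTGF has 2 small peaks.

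Every one of the 7 genes had an H3K27ac peak at or within 2 kb of its start, and the strongest of these ran from 61 to 237 fragments at the summit. The share of all genes with such a peak was not counted, so its presence is not a result about these genes. Starts come from gene intervals rounded to 1 kb, so distances under that are not resolved. LATS2 had the highest, with 237 summit fragments (208 to 269, exact Poisson 95% interval), a fold enrichment of 57.0 and rank 27 of the 50364 peaks. YAP1 followed with 191 fragments (165 to 220, fold 36.5), then TEAD1 with 158 (134 to 185, fold 35.9), and CYR61 with 148 (125 to 174, fold 34.0). AMOTL2 had 129 fragments (108 to 153, fold 31.1) and WWTR1 110 (90.4 to 133, fold 17.2). CTGF had the lowest, with 61 fragments (46.7 to 78.4, fold 14.2). Neighbours in this order had overlapping counting intervals, except CTGF, whose interval lay below those of the other 6 genes. The intervals cover counting error only. Local background, as solved from the deposited values, also differed, at 5.44 fragments under the WWTR1 peak and 4.26 under YAP1. Under LATS2 and AMOTL2 it was 3.18, the lowest level of the list. Its part in the order of the folds was not tested.

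**Figure D2:**
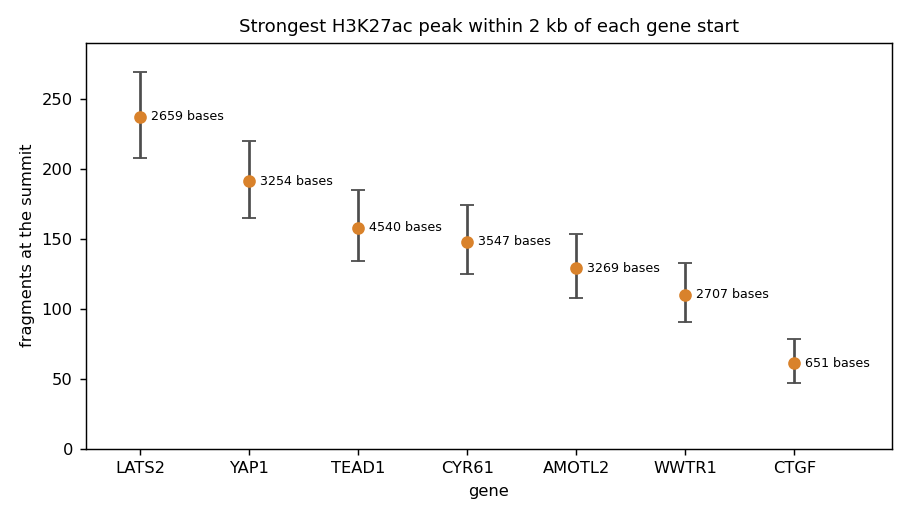
Fragments at the summit of the strongest H3K27ac peak within 2 kb of each gene start, in order of size, with exact Poisson 95% intervals as bars and the peak's width in bases as a label. LATS2 is highest at 237 and CTGF lowest at 61, and the CTGF peak is also the narrowest at 651 bases.

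The coactivator genes YAP1 and WWTR1 differed in where their acetylation lay. YAP1 had 7 H3K27ac peaks, and the one at its start (chromosome 11, 101980404 to 101983657, 3254 bases) held 92.1% of their summed signal, taken as fold times width. The other 6 peaks lay inside the gene and had folds from 2.73 to 4.30. Of the YAP1 interval, 101981000 to 102104000, 4.55% of bases were inside H3K27ac peaks. The strongest after the start peak, at 102049376 to 102049915, had a fold of 4.30 and 22 fragments, 68.6 kb into the gene.

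WWTR1 had 19 H3K27ac peaks, and its strongest was not at the start. A single peak of 9608 bases (chromosome 3, 149290915 to 149300522) had its summit 82.1 kb into the gene, with a fold of 28.2 from 166 fragments (142 to 193). Only 0.0635% of the peaks in the list were at least as wide. It held 76.6% of the summed signal of the WWTR1 window. The start peak (149374319 to 149377025) had a fold of 17.2, and the third, at 149304190 to 149304740 beside the wide block, had 7.34. The other 16 peaks were weaker. H3K27ac peaks joined when within 12500 bases of each other form domains, and those with the highest summed signal are called large (784 of 18213, 4.30%). The domain with the wide block spanned 35.9 kb with 9 peaks and ranked 178. The domain at the WWTR1 start ranked 2562 and that at the YAP1 start 793, just outside the large class.

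TEAD1, the DNA-binding partner, had the most H3K27ac peaks, 26, and all had their summits inside its 270 kb interval (chromosome 11, 12696000 to 12966000). Its window was also the longest, at 370 kb. The density, 70.3 per Mb, was near the 69.6 of all windows and below those of WWTR1, CYR61 and AMOTL2. The peak at the start (12695104 to 12699643, 4540 bases) had a fold of 35.9. The second, at 12713909 to 12716410, lay 19.6 kb into the gene with a fold of 20.3 from 98 fragments (79.6 to 119). The third, at 12790174 to 12791642, lay 95.2 kb into the gene with a fold of 11.7 from 48 fragments (35.4 to 63.6). At the start, 13 peaks formed 1 large domain of 29.2 kb that ranked 240. The remaining 13 peaks were spread over 5 smaller domains, and the median fold of all 26 was 3.98.

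The target genes CYR61 and CTGF encode proteins of 1 family and have intervals of 4 kb each, but they differed in the extent and strength of their acetylation. CYR61 had 8 H3K27ac peaks that covered 13370 bases of its window, and CTGF had 2 that covered 1291 bases. Inside the gene, 92.7% of CYR61 bases and 16.3% of CTGF bases were acetylated. The main CYR61 peak (chromosome 1, 86046394 to 86049940, 3547 bases) spanned nearly the whole gene with a fold of 34.0. Upstream of the start lay a peak at 86041932 to 86044261 with a fold of 25.1 from 104 fragments (85.0 to 126), and another at 86044586 to 86046161 with a fold of 10.9. The 4 peaks on and beside the gene formed a large domain of 8.99 kb that ranked 340. A second group of 4 peaks lay past the gene end, with summits up to 32.4 kb from the start and folds up to 15.0. DDAH1 neighbours CYR61 on the start side and ZNHIT6 on the other, and which gene a peak serves cannot be read from the lists. The peak at the CTGF start (chromosome 6, 132271822 to 132272472) had a fold of 14.2, which 13.1% of the list reached. The other, its summit 2.71 kb before the start at 132275269 to 132275908, had a fold of 5.75 from 23 fragments (14.6 to 34.5). Local background was close under both start peaks, at 3.38 fragments in CYR61 and 3.36 in CTGF. Their counting intervals did not overlap (125 to 174 and 46.7 to 78.4 fragments).

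**Figure D3:**
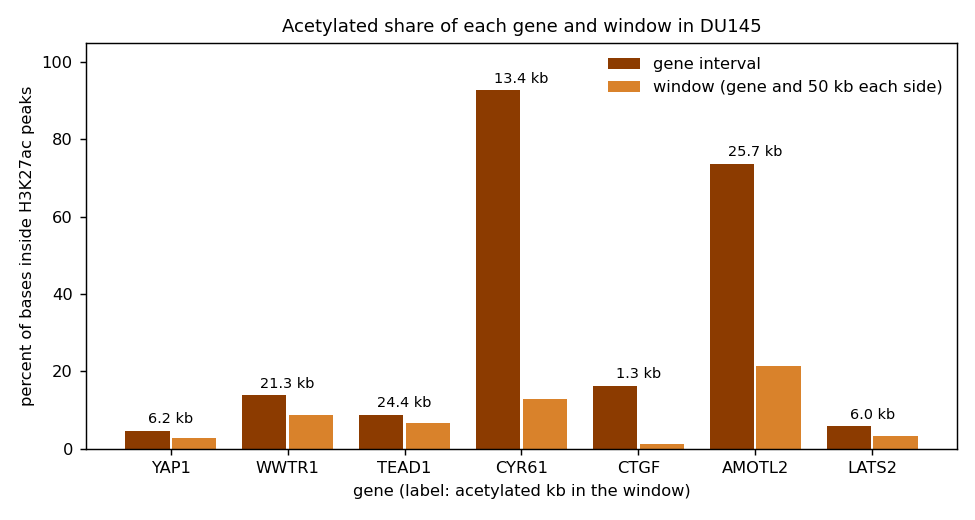
Percent of bases inside H3K27ac peaks in the interval of each gene (dark) and in its window with 50 kb on each side (light); labels give the acetylated length of the window in kb. CYR61 and AMOTL2 are covered over most of the gene, at 92.7% and 73.7%, and the other 5 genes over 4.55% to 16.3%. The percent depends on gene length, which runs from 4 kb at CYR61 and CTGF to 270 kb at TEAD1. Acetylated bases inside the gene number 3709 at CYR61, 14747 at AMOTL2 and 651 at CTGF. They number 5596 at YAP1, 19500 at WWTR1, 23493 at TEAD1 and 5178 at LATS2.

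AMOTL2, the YAP-binding inhibitor, had the densest acetylation of the 7, with 25 H3K27ac peaks in a window of 120 kb, 208 per Mb. Peaks covered 73.7% of the gene (chromosome 3, 134074000 to 134094000) and 21.4% of the window. The start peak (134091476 to 134094744, 3269 bases) had a fold of 31.1. The widest peak, at 134086091 to 134090418 with 4328 bases, had a fold of 8.55. The gene lay whole within a large domain of 25.1 kb with 14 peaks, which ranked 322. Past the gene end, on the side of RYK, lay a second group of 11 peaks over 21.2 kb that ranked 1112. It held the second strongest peak of the window, at 134032217 to 134033440, 61.4 kb from the start, with a fold of 23.9 from 99 fragments (80.5 to 121). The next fold, 15.2 from 85 fragments, was shared by a peak of this group at 134045934 to 134047860 and a peak inside the gene at 134082152 to 134083138. Of the 25 summits, 13 lay past the gene end, and which gene these peaks serve cannot be read from the lists.

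LATS2, the kinase that restrains YAP, had the strongest peak and little else. Its start peak (chromosome 13, 21633766 to 21636424, 2659 bases) held 90.6% of the summed signal of 7 peaks, a share near that of the YAP1 start peak. The next, at 21644364 to 21644809, lay 8.57 kb before the start with a fold of 6.94 from 28 fragments (18.6 to 40.5). A peak 44.0 kb into the gene, at 21591807 to 21592822, had a fold of 5.03, and the remaining 4 had folds from 3.48 to 4.07. The start domain, with 2 peaks over 11.0 kb, was large and ranked 540. LATS2 and AMOTL2, the 2 inhibitors, were thus unlike in extent, with 6048 and 25684 acetylated bases in their windows. Inside the gene intervals the values were 5178 and 14747. Of the 20 domains in the 7 windows, 5 were large, against 784 of 18213, 4.30%, in the whole list. WWTR1, TEAD1, CYR61, AMOTL2 and LATS2 had 1 each.

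**Figure D4:**
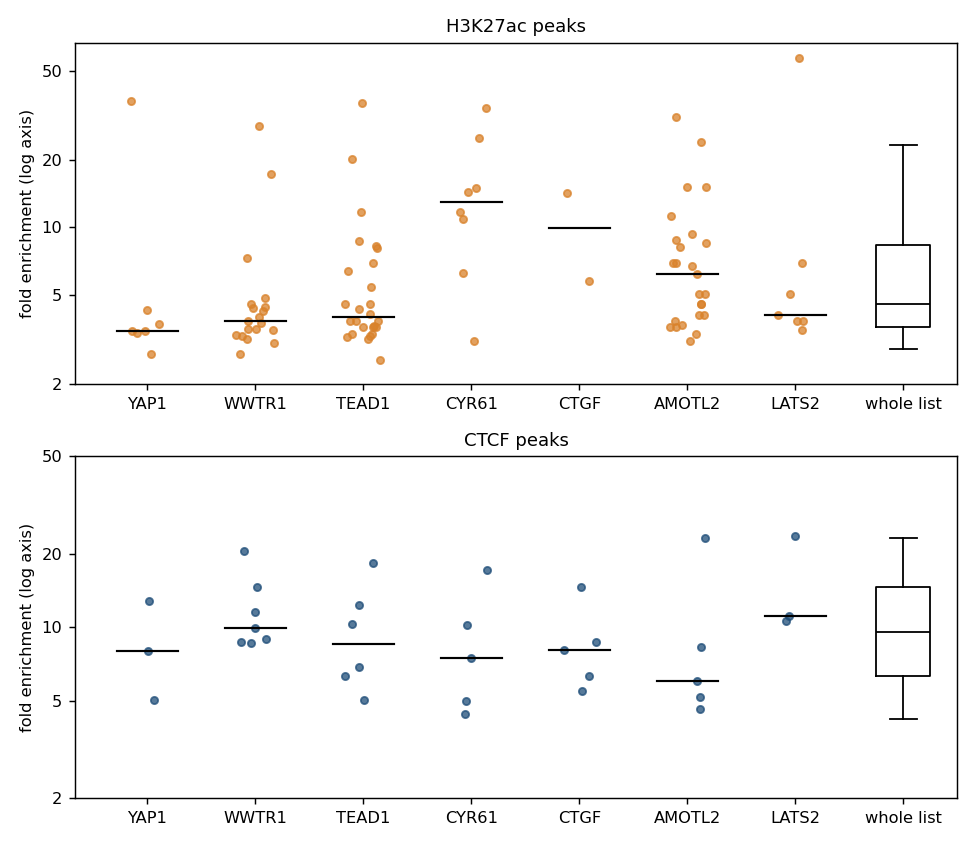
Fold enrichment (log axis) of every H3K27ac and CTCF peak by gene, with black lines at the median of each gene; boxes at the right show the whole list (median, quartiles, and the 5th and 95th percentiles as whiskers). Median H3K27ac folds lie below the list median of 4.55 at YAP1, WWTR1, TEAD1 and LATS2 and above it at CYR61 (13.0), CTGF (9.98) and AMOTL2 (6.23). The LATS2 CTCF peak at 23.5 is the only one above the upper CTCF whisker at 23.3.

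CTCF peaks were also denser over the windows combined than in the genome, and were of ordinary strength. The 34 peaks made 25.2 per Mb (interval 17.4 to 35.2), against 11.5 per Mb over the assembled chromosomes, 2.18 times the density (1.51 to 3.05). These intervals, too, treat peaks as independent. With no widening of the gene intervals the ratio was 1.60, from 12 peaks. By window the density was 48.1 per Mb at CYR61 and CTGF, 41.7 at AMOTL2 and 29.0 at WWTR1. It was nearer the genome's at TEAD1 (16.2), LATS2 (15.9) and YAP1 (13.5). The median fold of the 34 peaks was 8.68, against 9.52 in the whole list, and 14 of 34 reached a fold of 10, 41.2% against 47.4%. Fragments at a CTCF summit ran from 15 to 89. Of the 34 summits, 4 lay before a start, 12 inside a gene and 18 past its end. The strongest were near LATS2 (chromosome 13, 21517723 to 21517988, fold 23.5 from 81 fragments, 64.3 to 101), AMOTL2 (chromosome 3, 134027170 to 134027509, fold 23.2 from 80 fragments, 63.4 to 99.6) and WWTR1 (chromosome 3, 149198201 to 149198623, fold 20.5 from 89 fragments, 71.5 to 110). All 3 lay past the end of the gene, 118, 66.6 and 178 kb from its start.

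Overlap of CTCF with acetylation was uneven between the genes. Over all windows, 10 of 34 CTCF peaks overlapped an H3K27ac peak by at least 1 base, 29.4% (Wilson 95% interval 16.8 to 46.2), against 14.2% of the whole list. For 7 of them the summit itself lay inside, 20.6% against 8.40%. All 5 CTCF peaks of the CYR61 window were among them, with 3 of 5 at AMOTL2, 1 of 5 at CTGF, 1 of 3 at YAP1, and 0 of 7 at WWTR1, 0 of 6 at TEAD1 and 0 of 3 at LATS2. Of the 94 H3K27ac peaks, 10 overlapped CTCF, 10.6% (5.88 to 18.5), close to the 10.1% of the list. The 10 overlapping CTCF peaks had a median fold of 6.17 and the 24 others 10.1, whereas in the whole list the medians were 11.2 and 9.39. These are descriptions of few peaks and were not tested. The Wilson intervals treat peaks as independent, though most overlapping CTCF peaks came from the CYR61 and AMOTL2 windows.

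**Figure D5:**
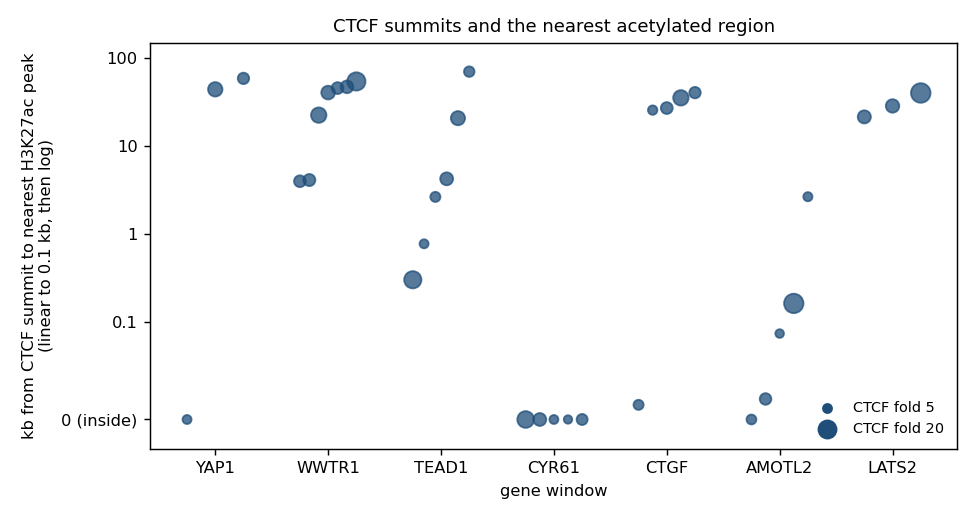
Distance in kb from each CTCF summit to the nearest H3K27ac peak (0 is inside; linear to 0.1 kb and log beyond), by gene window, with point area in proportion to CTCF fold enrichment. All 5 CYR61 summits lie inside an H3K27ac peak, the AMOTL2 summits lie at most 2652 bases from one, and those of LATS2 at least 21466 bases away.

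At CYR61, CTCF peaks lay within the acetylated gene and beside it. The strongest (86042659 to 86043051, fold 17.2 from 59 fragments, 44.9 to 76.1) lay 3.19 kb before the start, inside the upstream H3K27ac peak. A second (86046940 to 86047226, fold 10.2 from 36 fragments, 25.2 to 49.8) lay 1.09 kb into the gene. Another in the gene, at 86048201 to 86048368, had a fold of 4.98 from 17 fragments (9.90 to 27.2). The 2 peaks past the gene, at 86071832 to 86071985 and 86078803 to 86079038, had folds of 4.41 and 7.49 and lay in the second acetylated group. Each of these 2 ran past an edge of an H3K27ac peak, with its summit inside but close to that edge. At CTGF, 1 weak peak (132271715 to 132271941, fold 6.30 from 22 fragments, 13.8 to 33.3) overlapped the edge of the start peak, with its summit 15 bases outside. The other 4 CTCF peaks formed a row past the gene end, 26.8 to 41.7 kb from the start and on the side of ENPP1, at least 25638 bases from any H3K27ac peak. The strongest of them, at 132236305 to 132236651, had a fold of 14.6 from 52 fragments (38.8 to 68.2). CYR61 and CTGF thus had 5 CTCF peaks each in windows of 104 kb, all 5 with summits inside acetylation at CYR61 and none at CTGF. For some of these peaks this turns on a short distance from an edge.

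At AMOTL2, 4 of the 5 CTCF summits lay inside or within 162 bases of an H3K27ac peak. The strongest, with a fold of 23.2, lay 162 bases beyond the outer edge of the second acetylated group. The next (134032036 to 134032268, fold 8.33 from 28 fragments) touched both the strongest peak of that group and the peak beside it, with its summit 21 bases from one of them. Inside the gene, a peak at 134077369 to 134077599 had a fold of 6.04 from 30 fragments (20.2 to 42.8). Another at 134090252 to 134090568, with a fold of 4.61 from 15 fragments, overlapped the end of the widest peak and had its summit in the break between it and the next, 88 bases outside and 3.49 kb into the gene. The last (134097311 to 134097640, fold 5.18 from 17 fragments) lay 3.40 kb before the start, 2652 bases outside the large domain.

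At YAP1, WWTR1, TEAD1 and LATS2 CTCF and acetylation were mostly apart, as in the whole list, where 14.2% of CTCF peaks overlapped an H3K27ac peak. The overlapping CTCF peaks were 1 of 3, 0 of 7, 0 of 6 and 0 of 3. AMOTL2, an inhibitor of YAP like LATS2, went the other way, with 3 of 5. The weak YAP1 peak (101981713 to 101982066, fold 5.01 from 21 fragments, 13.0 to 32.1) lay 0.906 kb into the gene, inside the start H3K27ac peak, whose own summit lay 106 bases outside the CTCF peak. The other 2 YAP1 peaks, at 102124813 to 102125115 (fold 8.00) and 102139506 to 102140015 (fold 12.8 from 55 fragments, 41.4 to 71.6), lay past the gene end, on the side of BIRC3. WWTR1 had 7 CTCF peaks, 5 of them past its end on the side of TM4SF4 and 146 to 178 kb from its start, with folds from 8.68 to 20.5. The 2 inside the gene had folds of 8.98 and 8.60 and lay 4105 and 3977 bases from the nearest H3K27ac peak, the second on the flank of the wide block's domain. TEAD1 had 6, of which 4 lay in the gene. The strongest of them (12915690 to 12915965, fold 18.4 from 63 fragments, 48.4 to 80.6) lay 220 kb from the start and 301 bases from the last H3K27ac peak of the gene. A peak 3.54 kb before the start, at 12692363 to 12692562, had a fold of 6.33 from 21 fragments (13.0 to 32.1) and lay 2639 bases outside the large TEAD1 domain. LATS2 had 3 CTCF peaks, none in the gene. They lay 118 and 137 kb past the start and 49.1 kb before it, with folds of 23.5, 10.6 and 11.1.

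Local background was examined because a fold depends on it. It was solved from the deposited fold and −log10 p and not read from an input library. Its lowest level is a floor shared by many peaks, so peaks at it cannot be ranked by background. It was at the lowest level of the list, 3.18 fragments, for 39 of the 94 H3K27ac peaks, 41.5% against 30.9% of the list. By gene this held for 19 of 25 peaks at AMOTL2, 12 of 26 at TEAD1, 6 of 7 at LATS2, 1 of 8 at CYR61, 1 of 2 at CTGF, 0 of 19 at WWTR1 and 0 of 7 at YAP1. The median background was 5.44 fragments at YAP1 and 4.93 at WWTR1, against 3.18 at AMOTL2 and LATS2. The part of background in the fold differences between the genes was not tested.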

How the data were processed

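Peaks were deposited by the authors as 1 list for each of 2 DU145 libraries, with no replicate. Bowtie and MACS2 were used with the hg19 build, per the submitters' processing notes; versions and settings, and which input library served as background, were not given in the sources used here. For each peak the authors deposited a fold enrichment (a linear ratio at the summit), a −log10 p and a −log10 q, a whole-number score equal to 10 times the −log10 q rounded down, and a summit position. The smallest −log10 q was 1.31. The score was not used further.

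Peaks were assigned to the 7 windows by overlap of at least 1 base, from intervals rounded to 1 kb, with starts taken at the interval end that fits the gene's strand. Densities use the hg19 lengths of the assembled chromosomes. The lists were never compared in fold. Fold was taken as summit signal plus 1 over local background plus 1. Fold and −log10 p were solved together for whole fragments at the summit and their background, with a tolerance of 0.002 on −log10 p. This succeeded for every peak (pileup scale 1 for H3K27ac and 0.911 for CTCF). Domains join H3K27ac peaks within 12500 bases. Large ones lie past slope 1 of the curve of ranked summed fold times kb. Named peaks are up to 5 CTCF peaks by fold, and the 3 strongest, the widest and the start-nearest H3K27ac peak of each window. The WWTR1 CTCF peak with a fold of 8.60 and the peaks beside window edges lie outside this rule and were chosen after their values were seen. Sequences and neighbouring gene names come from RefSeq GRCh38.p14. The planned counts over other Hippo pathway genes and the bases around CTCF summits were not made, since no hg19 annotation or genome was used here. The labelled cell line was not checked against markers for the same reason. The members and lists were chosen with earlier results of these data known. Scripts were tested on simulated data. Python 3.11.15, numpy 2.4.6, pandas 2.3.3 and scipy 1.17.1 were used.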

Additional observations from a re-analysis of the deposited data

How the results depend on the processing

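Of 36 alternatives to the values over all windows, 27 stayed within 1.5 times the count or share of bases, or within the 95% interval of the value, and 9 did not. With no widening of the gene intervals, 12 CTCF peaks were left of 34, the H3K27ac density was 6.88 times that of the assembled chromosomes, 50% of CTCF peaks overlapped H3K27ac, and 11.2% of bases were acetylated. With 100 kb added on each side, the H3K27ac density ratio was 3.24. With a −log10 q of 10 or more, 38 H3K27ac peaks were left of 94, with a median fold of 10.1 against 9.49 in the list so filtered. The share of H3K27ac peaks that overlap CTCF was 1.06% when the summit had to lie inside a CTCF peak and 21.3% within 1 kb, against 2.24% and 17.2% of the list. Large domains in the windows numbered from 4 (joined within 25 kb) to 7 (within 5 kb), against 5. No paired analysis was possible because each mark has 1 library. The weakest members rest on 12 H3K27ac and 15 CTCF fragments, which limits their order.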

Other observations

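The edges of the windows decided a few members. Just inside, the nearest CTCF peak to an edge lay 775 bases in, in the LATS2 window, with a fold of 11.1, and the nearest H3K27ac peak lay 3542 bases in, in the AMOTL2 window, with a fold of 6.23. Just outside, an H3K27ac peak of 1403 bases with a fold of 15.6 began 940 bases past the AMOTL2 window, on the side of ANAPC13, and a CTCF peak with a fold of 7.83 began 4681 bases past the YAP1 window, on the side of BIRC3. The LATS2 window was flanked by an H3K27ac peak of 1509 bases with a fold of 14.3 that ended 19316 bases before it, on the side of XPO4.

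H3K27ac was sparse around CTGF well beyond its window: on the side of MOXD1, the nearest H3K27ac peak lay 399209 bases past the window edge and had a fold of 4.07. On the side of ENPP1 the nearest lay 33872 bases outside, with a fold of 5.52. Around YAP1, the nearest H3K27ac peak on the side of CFAP300 lay 144502 bases outside, with a fold of 6.08. Before the TEAD1 start, on the side of PARVA, it lay 245872 bases outside, with a fold of 8.86.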
